A study of Homo sapiens with 4 samples.

Results

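The nuclear-encoded respiratory chain subunits were examined at the transcript level in breast cancer cells of the LM2 line, with hnRNPM knocked down or in control state. Members were the protein-coding genes whose current symbols begin with NDUFA, NDUFB, NDUFC, NDUFS, NDUFV, UQCR, COX4 to COX8 or ATP5, together with SDHA, SDHB, SDHC, SDHD and CYC1. This gave 89 of the 36525 genes in the table. By complex there were 35 genes of complex I, 7 complex I assembly factors that share the NDUFA prefix (NDUFAF1 and relatives), 4 of complex II, 9 of complex III, 18 of complex IV and 16 of complex V. NDUFA4 and NDUFA4L2 were counted with complex IV, where the NDUFA4 protein resides. Another 10 genes that meet the rule (ATP5F1E, ATP5MGL, ATP5PF, ATP5PO, COX4I2, NDUFA6, NDUFA7, NDUFAF5, NDUFV3 and UQCR10) were not analysed here.

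The respiratory chain lies in the inner mitochondrial membrane. Complexes I and II pass electrons from NADH and succinate to ubiquinone, complex III passes them to cytochrome c, and complex IV passes them to oxygen. Complexes I, III and IV pump protons, and complex V, the ATP synthase, uses the proton gradient to make ATP. Most subunits are encoded in the nucleus and imported, while a small core set of complexes I, III, IV and V is encoded by mitochondrial DNA, so that assembly draws on both genomes. Transcription factors of the NRF1, ETS (GABP), YY1, Sp1 and estrogen-related receptor families are known to act on promoters of the nuclear genes.

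LM2 is a lung-metastatic subline of the mesenchymal human breast cancer line MDA-MB-231, and the design text calls it clonal. There were 2 libraries of hnRNPM knockdown cells and 2 of control cells, all harvested 48 h after plating. HNRNPM encodes an RNA-binding protein that regulates splicing, and the series concerns hnRNPM, splicing and metastasis. The silencing agent appears both as an shRNA and as an siRNA in the labels. Separate cultures behind the libraries of a group are not mentioned, so p-values here reflect a spread between samples that may be purely technical. Values are RPKM, reads divided by a length per gene and by a total that both libraries of a group appear to share. They are therefore not levels relative to each library's own depth. For most low values the length matched the merged exons of all annotated transcripts of a gene. Fewer cells with a transcript and less of it per cell cannot be told apart.

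HNRNPM was at 11.5 and 12.95 RPKM in knockdown cells, against 88.6 and 102.2 RPKM in control cells, with a log2 fold change of −2.91 ± 0.17 (SE). All 6 mesenchymal markers examined (VIM, CD44, EGFR, FN1, CAV1 and AXL) were present, with means from 18.2 to 650.2 RPKM. Of 8 luminal markers, 5 had a mean of at least 1 RPKM, and their summed level was 24.9 and 27.6 RPKM in knockdown cells, against 16.5 and 18.6 RPKM in control cells. Of these 5, KRT8 (7.50 and 8.01 RPKM in knockdown cells, against 3.86 and 4.55 in control cells) and KRT18 (10.5 and 11.8, against 5.49 and 6.54) were higher without overlap, and the groups of EPCAM, GATA3 and KRT19 overlapped. ESR1 and FOXA1 were below 0.1 RPKM and PGR was listed at 0 in all libraries. Of 4 leukocyte markers, CD14 alone reached 1 RPKM, the summed level was 5.29 and 7.15 RPKM in knockdown cells, against 1.29 and 1.47 RPKM in control cells, and PTPRC stayed below 0.1 RPKM. Both endothelial markers in the table, CDH5 and VWF, stayed below 0.1 RPKM. The part of these markers in the results below was not tested.

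Most respiratory chain transcripts did not pass the test. Of the 89 members, 80 had a mean of at least 1 RPKM over the 4 libraries and were tested: 50 lay at or above 10 RPKM and 30 between 1 and 10. Of these, 4 rose after knockdown (UQCRFS1, NDUFA8, SDHD and ATP5PD), 4 fell (NDUFB6, NDUFA4, ATP5MC1 and NDUFS7) and 72 did not pass (limma, Benjamini-Hochberg adjusted p under 0.05). That is 5% of tested members in each direction, against 14.7% higher and 21.8% lower among all 13627 tested genes. The 8 genes span all 5 complexes, and complexes I and V each held genes that rose and genes that fell. With 2 libraries per group, a lack of overlap between the groups says little by itself. Libraries in random order would separate with a probability of 0.333.

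The members' changes were also small in size. The median size of the log2 fold change, without its sign, was 0.15 for the members and 0.31 for all tested genes. A change under 0.25 was found for 67.5% of members (54 of 80), against 42.1% of all tested genes. The change of UQCRFS1, the member that moved furthest at 0.63, was exceeded in size by 21.2% of all tested genes. With sign, the median log2 fold change was −0.10 for tested members and −0.07 for all tested genes, and it was −0.10 over all 89 members without a filter.

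**Figure D1:**
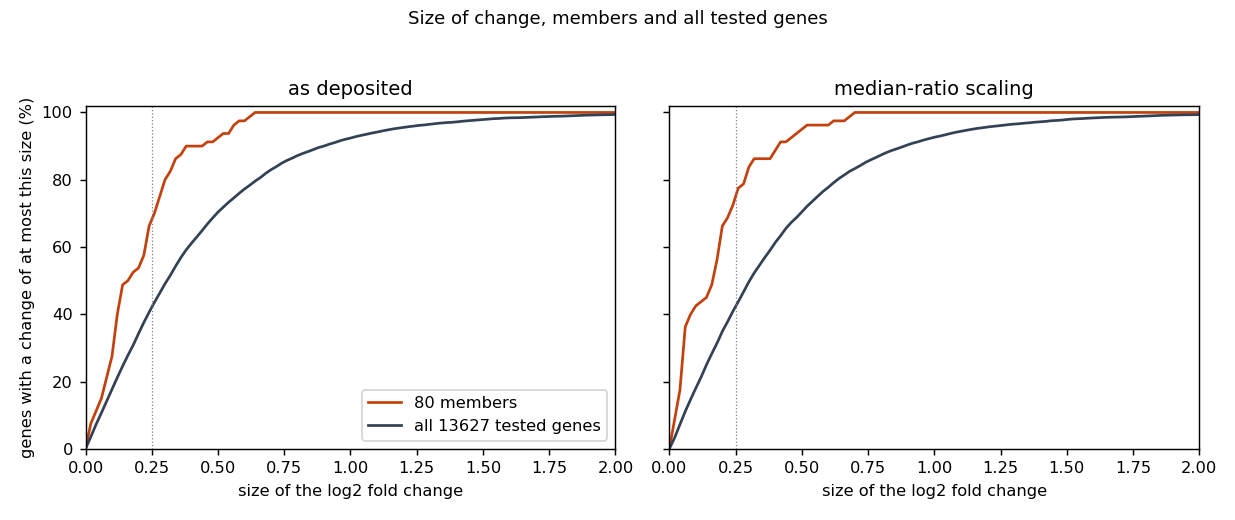
Cumulative share of genes (y axis, %) by the size of the log2 fold change between knockdown and control (x axis), for the 80 tested members and all 13627 tested genes, as deposited and with median-ratio scaling. The members' line lies above that of all genes: 67.5% of members, against 42.1% of all tested genes, lie under 0.25 (dotted line) as deposited.

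The 2 libraries of a group differed by a factor shared by nearly all genes, and this entered the error of the tests. Median-ratio scaling divides each library by its median ratio to the genes' geometric means, and lowered the median SE over all tested genes to 0.0543, against 0.175 as deposited. On scaled values 17 members were higher and 20 lower, 21.2% and 25% of those tested, against 30.8% and 30.2% of all tested genes. Of the 8 genes called as deposited, 7 also passed on scaled values, the exception being ATP5PD (adjusted p = 0.1001). The smallest change called there was 0.10 on the log2 scale. The median was −0.03 for members and 0.00 for all genes.

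Single libraries weighed on the counts of calls, whose ranges for members and for all genes are given at the end. With 1 library left out, the median log2 fold change of tested members ranged from −0.20 to 0.01 as deposited and from −0.03 to −0.02 scaled. For all tested genes it ranged from −0.16 to 0.02 and from −0.002 to 0.004. On scaled values UQCRFS1 ranged from 0.68 to 0.72, NDUFA8 from 0.64 to 0.72, SDHD from 0.44 to 0.80 and ATP5PD from 0.25 to 0.76. NDUFB6 ranged from −0.51 to −0.43, NDUFA4 from −0.53 to −0.44, ATP5MC1 from −0.53 to −0.38 and NDUFS7 from −0.44 to −0.40.

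**Figure D2:**
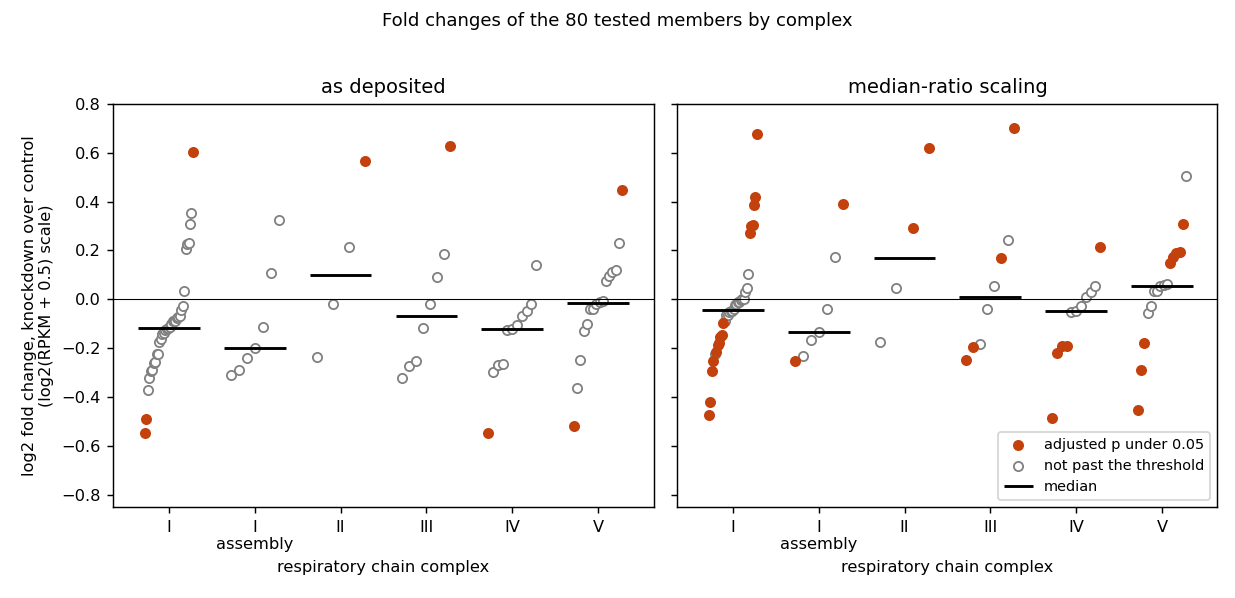
Log2 fold change, knockdown over control, of each of the 80 tested members (points) by complex (x axis), as deposited and with median-ratio scaling; filled points pass an adjusted p of 0.05 and bars are medians. Medians lie between −0.20 and 0.17 in both panels, and the genes of a complex lie on both sides of 0.

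Complex I, the NADH dehydrogenase, had 34 tested subunits, of which 1 rose and 2 fell as deposited, and 6 were higher and 10 lower scaled. As for the other complexes, these counts stand against 14.7% higher and 21.8% lower of all tested genes as deposited, and 30.8% and 30.2% scaled. The median log2 fold change was −0.12 as deposited and −0.04 scaled. NDUFA8, an accessory subunit of the membrane arm that faces the intermembrane space, was at 40.4 and 45.1 RPKM in knockdown cells, against 25.3 and 30.9 RPKM in control cells. Both knockdown libraries lay above both control libraries, and the means were 42.7 ± 3.35 and 28.1 ± 3.97 RPKM (SD, n = 2 each), a 1.52-fold higher level. On the log2 scale NDUFA8 rose by 0.60 ± 0.17 (SE; adjusted p = 0.00254) as deposited and by 0.68 ± 0.03 scaled (adjusted p = 0.000858).

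NDUFB6, an accessory subunit of the distal membrane arm, moved the other way. It was at 18.8 and 20.3 RPKM in knockdown cells, against 27.6 and 29.97 RPKM in control cells, with no overlap between the groups. Its log2 fold change was −0.55 ± 0.17 (SE; adjusted p = 0.00672), and −0.47 ± 0.04 scaled (adjusted p = 0.00206). The ratio of NDUFA8 to NDUFB6, which does not depend on library scaling, was 2.15 and 2.23 in knockdown libraries, against 0.917 and 1.03 in control libraries. NDUFA8 was thus the more abundant of the pair per length after knockdown, and the 2 were close to equal in control cells. Both genes were picked by their changes in these libraries, so the separation of their ratio adds no support and was not tested.

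NDUFS7, a core subunit of the Q module that carries the last iron-sulfur cluster before ubiquinone, also fell. It was at 3.54 and 3.83 RPKM in knockdown cells, against 4.97 and 5.80 RPKM in control cells, and the groups did not overlap. The log2 fold change was −0.49 ± 0.18 (SE; adjusted p = 0.0184), and −0.42 ± 0.04 scaled (adjusted p = 0.00247). An antisense gene (ENSG00000248015, at a mean of 3.36 RPKM) covers 35.75% of the NDUFS7 exon bases, and no source used here says whether counting used strand, so reads of the 2 cannot be told apart. NDUFV1, the flavin-binding core subunit that accepts electrons from NADH, was at 13.8 and 15.4 RPKM in knockdown cells, against 17.7 and 20.4 RPKM in control cells. It did not pass as deposited (log2 fold change −0.37 ± 0.18, adjusted p = 0.0853) and passed on scaled values (−0.29 ± 0.02, adjusted p = 0.0014). Its partner in the same module, NDUFV2, had the opposite sign at 0.35 as deposited (adjusted p = 0.112) and 0.42 scaled (adjusted p = 0.00747).

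Medians by module were slightly negative as deposited. The N module, which oxidises NADH, had a median of −0.08 over 7 tested genes, the Q module −0.08 over 6, the proximal membrane arm −0.10 over 9 and the distal membrane arm −0.14 over 11. All but NDUFB3 of the 11 distal-arm genes had a negative log2 fold change, also on scaled values, where the median was −0.06, 4 genes were lower and 1 was higher. Negative changes were found for 59 of 80 tested members and 7663 of 13627 tested genes as deposited, and for 45 and 6820 scaled. As deposited, NDUFB6 alone of the distal arm passed. NDUFAB1, the mitochondrial acyl carrier protein, was at 33.2 and 35.97 RPKM in knockdown cells, against 25.3 and 30.5 RPKM in control cells, and passed only on scaled values (log2 fold change 0.39, adjusted p = 0.0021). The 7 NDUFAF assembly factors, which help build complex I without staying in it, had a median of −0.20 as deposited and −0.13 scaled. None of them passed as deposited (limma, 0 also at an unadjusted p under 0.05), and 1 was higher and 1 lower scaled. Of all 13627 tested genes, 6030 had an unadjusted p under 0.05 as deposited.

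Complex II, succinate dehydrogenase, is wholly nuclear-encoded and also works in the tricarboxylic acid cycle. SDHD, a membrane anchor subunit, was at 1.81 and 1.46 RPKM in knockdown cells, against 0.943 and 0.932 RPKM in control cells, a 1.74-fold higher mean with no overlap. The log2 fold change was 0.56 ± 0.20 (SE; adjusted p = 0.0156), and 0.62 ± 0.15 scaled (adjusted p = 0.0342). This rested on an estimated 152 and 123 reads in knockdown libraries, against 112 and 111 in control libraries, and with 1 library left out the adjusted p ranged from 0.0304 to 0.214 as deposited and from 0.0222 to 0.141 scaled.

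The other complex II genes did not pass as deposited. SDHB, the iron-sulfur subunit, was at 17.9 and 20.1 RPKM in knockdown cells, against 14.9 and 17.8 RPKM in control cells, with a log2 fold change of 0.22 (adjusted p = 0.350) as deposited and 0.29 (adjusted p = 0.00297) scaled. SDHA, the flavoprotein, was at 1.34 and 1.60 RPKM in knockdown cells, against 1.64 and 2.01 RPKM in control cells (log2 fold change −0.24, adjusted p = 0.353). SDHC, the other membrane anchor, was at 2.24 and 3.15 RPKM in knockdown cells, against 2.62 and 2.79 RPKM in control cells, so its groups overlapped. The 4 subunits stand in equal number in the complex, and SDHB was several times higher per length than the other 3 in every library. This depends on the exon length used, 14160 bases for SDHC against 2462 for SDHB. By estimated reads SDHC had 942 and 1322 in knockdown libraries, against 1554 and 1652 in control libraries. SDHB had 1306 and 1467, against 1534 and 1832. SDHA and SDHD had fewer reads than both in every library.

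Complex III, the cytochrome bc1 complex, had 8 tested genes with a median log2 fold change of −0.07 as deposited and 0.01 scaled. UQCRFS1, the Rieske iron-sulfur protein, was at 11.1 and 12.1 RPKM in knockdown cells, against 6.94 and 7.74 RPKM in control cells, and the groups did not overlap. The means were 11.6 ± 0.74 and 7.34 ± 0.565 RPKM (SD, n = 2 each), a 1.58-fold higher level. On the log2 scale the difference was 0.63 ± 0.18 (SE; adjusted p = 0.00179), and 0.70 ± 0.03 scaled (adjusted p = 0.000651), the furthest of any tested member in both.

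The cytochrome c1 gene and a small accessory subunit had negative changes beside it. CYC1 was at 46.6 and 53.3 RPKM in knockdown cells, against 55.8 and 65.1 RPKM in control cells, with a log2 fold change of −0.27 (adjusted p = 0.215) as deposited and −0.19 (adjusted p = 0.00459) scaled. UQCRQ was at 40.3 and 46.6 RPKM in knockdown cells, against 50.1 and 58.998 RPKM in control cells, with −0.32 (adjusted p = 0.132) as deposited and −0.25 (adjusted p = 0.00464) scaled. The ratio of UQCRFS1 to CYC1, the 2 redox subunits of complex III made from nuclear genes, was 0.238 and 0.227 in knockdown libraries, against 0.124 and 0.119 in control libraries. That ratio is free of library scaling and was 1.91-fold higher after knockdown. Its 2 genes were picked by their changes in these libraries, with opposite signs, so its separation adds no support. The hinge protein UQCRH was at 4.33 and 4.26 RPKM in knockdown cells, against 4.85 and 5.59 RPKM in control cells (log2 fold change −0.25, adjusted p = 0.269), and its retrocopy UQCRHL stayed below 0.2 RPKM in all libraries.

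Complex IV, cytochrome c oxidase, had 18 genes, of which 11 were tested, and several are pairs of ubiquitous and tissue-restricted isoforms. NDUFA4, first assigned to complex I and now placed in complex IV, was at 1.37 and 1.39 RPKM in knockdown cells, against 2.18 and 2.32 RPKM in control cells, with no overlap. The log2 fold change was −0.54 ± 0.19 (SE; adjusted p = 0.0144), and −0.48 ± 0.07 scaled (adjusted p = 0.00945). Among the other 10 tested genes none passed as deposited, and 3 were lower and 1 higher scaled.

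COX8A had the highest mean of all members, at 246 and 280.4 RPKM in knockdown cells, against 289 and 345 RPKM in control cells. Its log2 fold change was −0.27 ± 0.16 (SE; adjusted p = 0.198) as deposited and −0.19 ± 0.03 (adjusted p = 0.00711) scaled. A second protein-coding gene on the same strand (ENSG00000256100) covers 34.5% of its exon bases, so reads may be split between them. COX5A, a subunit on the matrix side, was at 25.7 and 26.5 RPKM in knockdown cells, against 30.1 and 34.4 RPKM in control cells (−0.30, adjusted p = 0.177; scaled −0.22, adjusted p = 0.016). COX6C was at 12.95 and 13.9 RPKM in knockdown cells, against 14.97 and 17.6 RPKM in control cells (−0.26, adjusted p = 0.240; scaled −0.19, adjusted p = 0.00905). All 3 changes were small and had the same sign.

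The isoform pairs of complex IV were dominated by the ubiquitous member. COX6B1 was at 66.7 and 66.2 RPKM in knockdown cells, against 66.1 and 73.3 RPKM in control cells, while the testis isoform COX6B2 was at 0.102 RPKM in both knockdown libraries and 0.0432 RPKM in both control libraries. COX7A2 was at 16.2 and 16.96 RPKM in knockdown cells, against 13.998 and 16.1 RPKM in control cells, while the muscle isoform COX7A1 was at 0.102 and 0.0341 RPKM in knockdown cells, against 0.0966 and 0.193 RPKM in control cells. COX7A2L, a relative of COX7A2 that takes part in supercomplexes, was at 12.6 and 13.9 RPKM in knockdown cells, against 13.4 and 15.5 RPKM in control cells. COX6B2 and COX7A1 were below the level tested. COX6B1, COX7A2 and COX7A2L did not pass as deposited, and COX7A2 was higher on scaled values (log2 fold change 0.21, adjusted p = 0.0118). In the fit without a filter COX6B2 was the 1 member called higher (adjusted p = 0.0113), on an estimated 11.5 reads in each knockdown library, against 6.9 in each control library.

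COX7B was at 7.23 and 8.18 RPKM in knockdown cells, against 7.25 and 8.37 RPKM in control cells, whereas COX7B2 had at most 1 estimated read in any library. COX4I1 was at 97.0 and 107.7 RPKM in knockdown cells, against 106.7 and 113 RPKM in control cells. Neither COX7B nor COX4I1 passed in either fit, and the groups of both overlapped. COX6A2 had an estimated 1.3 reads in 1 control library and 0 in the others, and COX8C was listed at 0 in all libraries. COX6A1, the ubiquitous isoform of its pair, was at 0.351 and 0.527 RPKM in knockdown cells, against 0.497 and 0.604 RPKM in control cells, and was not tested. NDUFA4L2, the hypoxia-induced relative of NDUFA4, had an estimated 3 and 2 reads in knockdown libraries, against 9 and 10 in control libraries.

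Complex V, the ATP synthase, had 16 tested genes, of which 1 rose and 1 fell as deposited, and 5 were higher and 3 lower scaled. The median log2 fold change was −0.01 as deposited and 0.06 scaled. ATP5PD, subunit d of the peripheral stalk, was at 2.38 and 2.43 RPKM in knockdown cells, against 1.91 and 1.39 RPKM in control cells. The groups did not overlap, but the control libraries lay far apart, and the call (log2 fold change 0.45 ± 0.19, adjusted p = 0.0466) was lost on scaled values (0.51 ± 0.20, adjusted p = 0.1001). ATP5F1D, subunit delta of the central stalk, was at 38.4 and 42.3 RPKM in knockdown cells, against 47.7 and 56.7 RPKM in control cells (−0.36, adjusted p = 0.0857; scaled −0.29, adjusted p = 0.00181). The catalytic subunit ATP5F1B, the second highest member, was at 248 and 276 RPKM in knockdown cells, against 209 and 237 RPKM in control cells (0.23, adjusted p = 0.281; scaled 0.31, adjusted p = 0.000616). These 2 subunits of the F1 part thus had opposite signs, and the ratio of ATP5F1B to ATP5F1D was 6.46 and 6.51 in knockdown libraries, against 4.39 and 4.18 in control libraries. This ratio was chosen after the values were seen and was not tested.

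The 3 ATP5MC genes encode the same mature subunit c, the ring that turns as protons pass, with different import peptides. ATP5MC1 was at 2.30 and 2.55 RPKM in knockdown cells, against 3.65 and 3.72 RPKM in control cells, and fell with a log2 fold change of −0.52 ± 0.18 (SE; adjusted p = 0.0134; scaled −0.45 ± 0.07, adjusted p = 0.00995). ATP5MC2 was at 4.25 and 4.66 RPKM in knockdown cells, against 4.86 and 5.95 RPKM in control cells (−0.25, adjusted p = 0.272; scaled −0.18, adjusted p = 0.0339). ATP5MC3 was at 12.2 and 14.4 RPKM in knockdown cells, against 12.8 and 14.6 RPKM in control cells, and its groups overlapped (−0.04, adjusted p = 0.890). As a share of the summed RPKM of the 3 genes, which no library scaling alters, ATP5MC1 made up 12.2% and 11.8% in knockdown libraries, against 17.2% and 15.4% in control libraries. ATP5MC3 made up 65.2% and 66.6% in knockdown libraries, against 59.98% and 60.1% in control libraries. ATP5MC3 was the leading source of subunit c transcripts in all libraries.

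**Figure D3:**
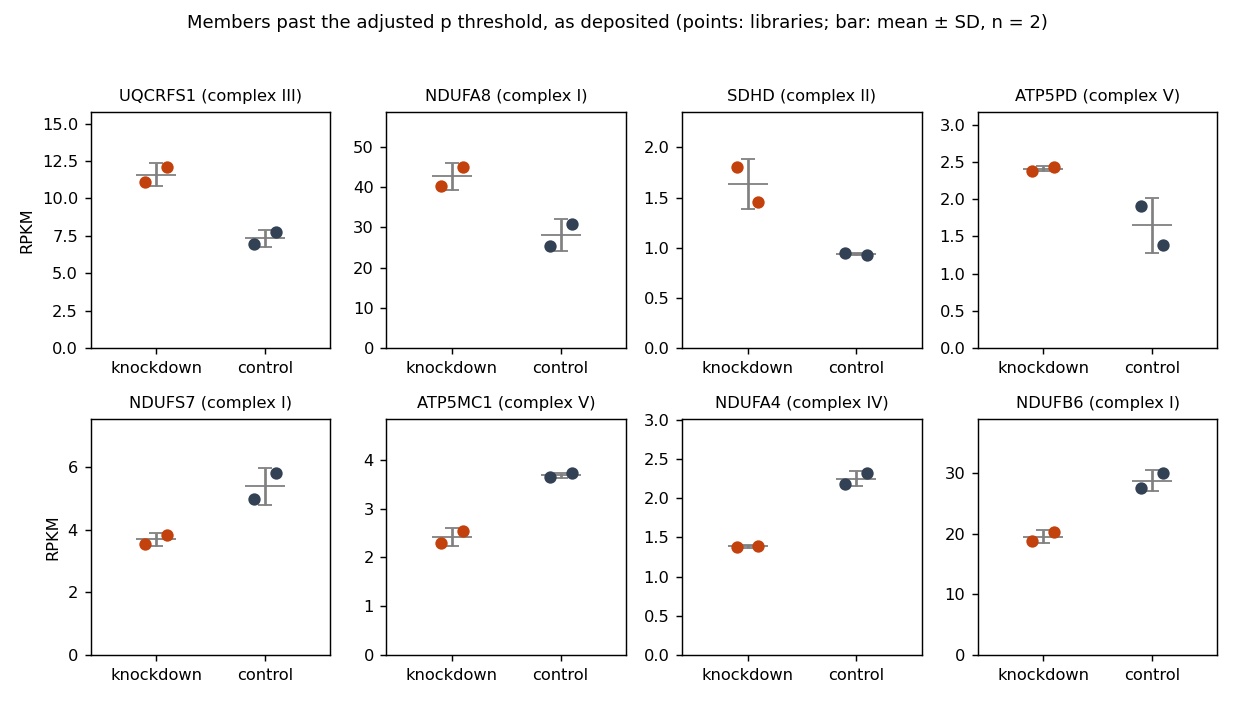
RPKM (y axis, from 0) of the 8 members past the adjusted p threshold as deposited, with each library as a point, knockdown left of control, and the mean ± SD (n = 2) as a bar. In every panel both knockdown libraries lie on one side of both control libraries; the upper row shows the 4 that rose and the lower row the 4 that fell, and the control libraries of ATP5PD are far apart.

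Promoters were searched for the letters that the known factors of respiratory genes prefer, and are shown for changed members so that both directions can be compared. The RefSeq promoter table (GRCh38.p14, 250 bases before to 50 bases after a gene's start) held 70 of the 89 members. Shown are 3 members that rose, then NDUFS7 and NDUFB6, which fell, 1 with and 1 without a match; each runs 5′ to 3′ on the strand of the gene. Capitals mark matches, on either strand, to NRF1 (GCGCATGCG), ETS (CCGGAAG), YY1 (AAGATGGCG), the estrogen-related receptor element (TCAAGGTCA) or Sp1 (GGGCGGGG).
UQCRFS1 promoter, chr19:29213102-29213401, minus strand: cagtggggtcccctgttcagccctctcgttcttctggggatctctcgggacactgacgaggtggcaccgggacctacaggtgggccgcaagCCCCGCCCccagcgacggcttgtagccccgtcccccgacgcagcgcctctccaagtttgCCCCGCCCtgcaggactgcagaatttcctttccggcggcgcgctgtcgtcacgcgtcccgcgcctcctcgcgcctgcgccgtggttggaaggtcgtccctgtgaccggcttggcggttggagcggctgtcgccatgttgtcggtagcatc
NDUFA8 promoter, chr9:122159730-122160029, minus strand: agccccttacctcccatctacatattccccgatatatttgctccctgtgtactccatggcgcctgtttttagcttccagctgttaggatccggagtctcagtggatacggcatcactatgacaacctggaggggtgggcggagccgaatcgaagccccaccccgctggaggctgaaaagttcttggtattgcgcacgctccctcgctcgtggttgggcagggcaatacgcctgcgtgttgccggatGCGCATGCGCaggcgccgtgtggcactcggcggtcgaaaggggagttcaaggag
SDHD promoter, chr11:112086623-112086922, plus strand: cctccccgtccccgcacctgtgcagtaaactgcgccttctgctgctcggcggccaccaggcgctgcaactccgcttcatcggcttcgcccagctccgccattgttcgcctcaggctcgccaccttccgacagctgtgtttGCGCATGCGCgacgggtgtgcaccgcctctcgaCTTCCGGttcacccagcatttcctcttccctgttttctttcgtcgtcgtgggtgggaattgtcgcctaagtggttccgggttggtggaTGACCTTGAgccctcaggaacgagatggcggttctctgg
NDUFS7 promoter, chr19:1383657-1383956, plus strand: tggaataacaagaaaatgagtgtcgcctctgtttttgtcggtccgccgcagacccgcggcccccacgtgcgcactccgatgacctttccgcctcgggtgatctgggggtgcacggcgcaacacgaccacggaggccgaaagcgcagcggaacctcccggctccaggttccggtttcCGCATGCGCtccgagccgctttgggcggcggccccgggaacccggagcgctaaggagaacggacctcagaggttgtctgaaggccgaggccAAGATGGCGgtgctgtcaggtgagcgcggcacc
NDUFB6 promoter, chr9:32573110-32573409, minus strand: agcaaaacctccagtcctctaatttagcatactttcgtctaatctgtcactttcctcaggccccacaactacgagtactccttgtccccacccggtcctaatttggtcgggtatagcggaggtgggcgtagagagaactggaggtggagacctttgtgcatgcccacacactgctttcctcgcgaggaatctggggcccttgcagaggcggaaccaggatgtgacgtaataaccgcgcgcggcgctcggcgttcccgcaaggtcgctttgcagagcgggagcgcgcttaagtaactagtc

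UQCRFS1 had 2 Sp1 matches, both on the opposite strand, and none of the others. NDUFA8 had NRF1 matches on both strands that overlap in 1 palindrome at its start site. SDHD had the same palindrome upstream, an ETS match after it and an estrogen-related receptor match downstream of its start. NDUFS7, which fell, had an NRF1 match on the opposite strand and a YY1 match, while NDUFB6 and ATP5MC1, which also fell, had no match to any of the 5 motifs. ATP5PD, which rose, had an ETS match.

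NRF1 letters were found in 9 of the 70 promoters, 12.86%, against 2.10% of all 27305 promoters in the table and 3.95% of the 7622 promoters of tested protein-coding genes. Of the 8 tested members with an NRF1 match, 2 rose (NDUFA8 and SDHD), 1 fell (NDUFS7) and the rest did not pass, with log2 fold changes from −0.49 to 0.60. ETS letters were in 28.57% of member promoters, against 10.67% of all and 21.16% of tested coding genes, and YY1 letters in 7.14%, against 1.85% and 4.61%. Sp1 letters were in 20% of member promoters, against 22.89% of all and 39.71% of tested coding genes, and the estrogen-related receptor element was in SDHD alone (1.43%, against 0.36% and 0.13%). A match describes letters in the window and is not evidence of a bound site or of a cause.

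Some contrasts could be read within each library, where no scaling enters. The summed RPKM of complex V over that of complex IV was 0.882 and 0.887 in knockdown libraries, against 0.734 and 0.731 in control libraries. The difference rested on the most abundant gene of each complex: without ATP5F1B and COX8A the ratios were 0.768 and 0.795 in knockdown libraries, against 0.743 and 0.779 in control libraries, and the groups overlapped. The ratio of complex III to complex I was 0.266 and 0.267 in knockdown libraries, against 0.265 and 0.272 in control libraries, also overlapping. Complex II over complex I was 0.0316 and 0.0320 in knockdown libraries, against 0.0257 and 0.0261 in control libraries, a 1.23-fold higher ratio. Complex V over complex I was 1.14-fold higher, at 0.623 and 0.619 in knockdown libraries, against 0.545 and 0.543 in control libraries. Complex IV over complex I was lower, at 0.706 and 0.698 in knockdown libraries, against 0.743 and 0.742 in control libraries. The groups of these last 3 ratios did not overlap. Each also holds the most abundant gene of a complex, and none was taken without it. In knockdown replicate 1, SDHB made up 17.9 of the 23.3 RPKM of complex II. ATP5F1B made up 248.2 of 459.3 RPKM of complex V there, and COX8A 245.9 of 520.6 RPKM of complex IV. How far the 3 ratios rest on these single genes was not tested. All these ratios were chosen after the values were seen and carry no test.

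The subunits encoded by mitochondrial DNA stood in contrast to the nuclear ones. Of the 13, 10 rose and none fell (limma, 11 higher and 0 lower at an unadjusted p under 0.05), with a median log2 fold change of 0.61 as deposited. All 13 were higher scaled. Among all tested genes 14.7% were higher and 21.8% lower as deposited, and 30.8% and 30.2% scaled. At an unadjusted p under 0.05 it was 6030 of 13627 as deposited, both directions together. MT-CYB, the mitochondrially encoded subunit of complex III, was at 1233 and 1347 RPKM in knockdown cells, against 665 and 760.2 RPKM in control cells (log2 fold change 0.86, adjusted p = 5.56e-07). MT-CO2, a copper-binding subunit of complex IV, was at 142.6 and 148 RPKM in knockdown cells, against 69.7 and 76.7 RPKM in control cells (0.99, adjusted p = 8.52e-08). The summed RPKM of the 13 over that of the 89 nuclear members was 3.72 and 3.70 in knockdown libraries, against 2.58 and 2.56 in control libraries, a ratio 1.44-fold higher after knockdown. The same ratio taken within a complex was 1.39-fold higher for complex I, 1.96-fold for complex III, 1.49-fold for complex IV and 1.60-fold for complex V. The difference between the 2 sets of genes was not tested.

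**Figure D4:**
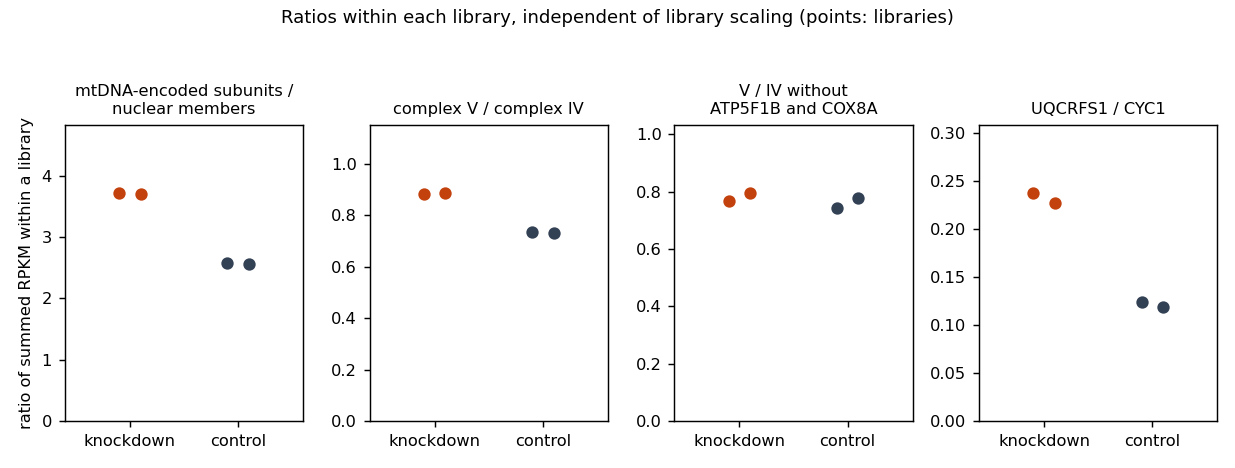
Ratios of summed RPKM within each library (y axes, from 0; points are libraries, knockdown left of control). The mtDNA-encoded to nuclear ratio is 3.72 and 3.70 in knockdown libraries, against 2.58 and 2.56 in control libraries. Complex V over IV separates the groups only while ATP5F1B and COX8A are included. UQCRFS1 over CYC1 separates them, but these genes were picked by their changes in these libraries.

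Lists of genes that assemble or surround the chain had counts whose background among all tested genes was 14.7% higher and 21.8% lower as deposited, or 30.8% and 30.2% scaled. For unadjusted counts the background was 6030 of 13627 genes as deposited, both directions together. Among 45 tested assembly factors outside the NDUFAF group, 2 rose and 6 fell as deposited, and 14 were higher and 13 lower scaled. SDHAF2, which helps attach flavin to SDHA, was at 20.9 and 20.97 RPKM in knockdown cells, against 10.2 and 12.5 RPKM in control cells (log2 fold change 0.87, adjusted p = 7.49e-06). BCS1L, which inserts the Rieske protein UQCRFS1 into complex III, was at 2.67 and 3.09 RPKM in knockdown cells, against 4.20 and 4.83 RPKM in control cells (−0.57, adjusted p = 0.00552). BCS1L thus fell where its substrate's transcript rose, and a link between the 2 was not tested. TMEM242, a factor for the subunit c ring of complex V, was at 0.976 and 0.816 RPKM in knockdown cells, against 2.01 and 2.40 RPKM in control cells (−0.95, adjusted p = 9.56e-06).

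Of 22 genes of ubiquinone synthesis, cytochrome c and enzymes that feed ubiquinone, 2 rose and 6 fell as deposited, and 5 were higher and 7 lower scaled. COQ10B, a ubiquinone-binding protein, was at 13.7 and 14.8 RPKM in knockdown cells, against 5.54 and 6.14 RPKM in control cells (log2 fold change 1.22, adjusted p = 1.07e-10). COQ8A, an atypical kinase-like protein of ubiquinone synthesis, was at 1.16 and 1.25 RPKM in knockdown cells, against 2.90 and 3.38 RPKM in control cells (−1.09, adjusted p = 9.01e-08). ETFB, a subunit of the electron transfer flavoprotein, was at 10.7 and 12.3 RPKM in knockdown cells, against 16.5 and 19.3 RPKM in control cells (−0.62, adjusted p = 0.00205). These 3 changes, the clearest by p in that list, thus had both signs.

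The tricarboxylic acid cycle, which supplies NADH and succinate, had no call in either direction among 17 tested genes as deposited (limma, 0 also at an unadjusted p under 0.05), and 5 higher and 5 lower scaled. FH, SUCLG2 and SUCLA2, its genes with the smallest p, had log2 fold changes of −0.34, −0.34 and −0.36. Among 13 tested genes of cristae and the MICOS complex, which shape the inner membrane, 3 fell and none rose as deposited (limma, 5 lower and 0 higher at an unadjusted p under 0.05), and 9 were lower and 2 higher scaled. MICOS10 was at 1.45 and 1.47 RPKM in knockdown cells, against 2.36 and 2.97 RPKM in control cells (−0.68, adjusted p = 0.00141). PHB2, a prohibitin, was at 36.6 and 41.2 RPKM in knockdown cells, against 53.7 and 62.6 RPKM in control cells (−0.57, adjusted p = 0.00397), and STOML2 had a log2 fold change of −0.43 (adjusted p = 0.0374).

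Among 21 tested regulators of mitochondrial biogenesis and transcription, 2 rose and 3 fell as deposited, and 6 were higher and 7 lower scaled. TFAM, which packages mitochondrial DNA and starts its transcription, was at 7.90 and 9.47 RPKM in knockdown cells, against 13.6 and 15.3 RPKM in control cells (log2 fold change −0.70, adjusted p = 0.000400). TFAM transcripts thus fell while most transcripts from mitochondrial DNA rose, and a link between them was not tested. MYC, a broad transcription factor, was at 19.5 and 21.9 RPKM in knockdown cells, against 30.1 and 35.0 RPKM in control cells (−0.64, adjusted p = 0.00129). NFE2L2, a regulator of the oxidative stress response, was at 14.4 and 15.6 RPKM in knockdown cells, against 9.20 and 10.3 RPKM in control cells (0.60, adjusted p = 0.00302).

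Levels of members differed widely within a complex whose subunits are present in fixed number. By mean RPKM over all libraries, tested genes of complex I ran from 3.09 (NDUFV2) to 96.1 (NDUFC2-KCTD14), complex III from 1.40 (UQCRB) to 55.2 (CYC1), complex IV from 1.82 (NDUFA4) to 290.3 (COX8A) and complex V from 2.03 (ATP5PD) to 242.6 (ATP5F1B). The exon lengths that divide the reads differed as well. They were 9715 bases for UQCRB against 1975 for CYC1, and 3556 for NDUFA4 against 507 for COX8A. For NDUFV2 the length was 2711 against 826 for NDUFC2-KCTD14, and for ATP5PD 3231 against 2322 for ATP5F1B. The part of length in this spread was not tested. NDUFC2-KCTD14 and ATP5MF-PTCD1 are readthrough genes that share exons with NDUFC2 and ATP5MF, so their reads may be split. Exons of 47 members overlap those of another gene, for 34 of them on the opposite strand.

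Many members have processed pseudogenes, copies of their transcripts elsewhere in the genome. Each coding window of 36 bases was looked up in GENCODE 29 pseudogenes. None of the windows was shared for 43 members, and at least 10% for 25. The tested members of the first kind (37) had a median of 19.9 RPKM and those of the second (23) a median of 3.14 RPKM. Across the 80 tested members the Spearman correlation of level and share was −0.49, a description over genes that share libraries and, in part, sequence.

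Among the changed genes the shared portion was 70.39% for UQCRFS1, 51.92% for NDUFA4, 48.47% for SDHD, 22.68% for ATP5PD and 15.72% for ATP5MC1, and 0 for NDUFA8, NDUFB6 and NDUFS7. NDUFS7 shared 35.59% of its coding windows with genes other than pseudogenes, and NDUFA8 and NDUFB6 shared 0. Named pseudogenes of SDHD in the table summed to 1.00 and 0.571 RPKM in knockdown libraries, against 0.458 and 0.404 RPKM in control libraries, which moved with SDHD itself. For ATP5PD they summed to 1.77 and 1.85 RPKM in knockdown libraries, against 1.46 and 2.36 RPKM in control libraries. For UQCRFS1 they summed to at most 0.0467 RPKM in any library; a further copy on chromosome 22 was not analysed here. COX6A1 and NDUFA5, both under 1 RPKM, shared 70.6% and 26.9% of their windows. How reads with several matches were handled is not given in the sources, and its part in these levels was not tested.

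**Figure D5:**
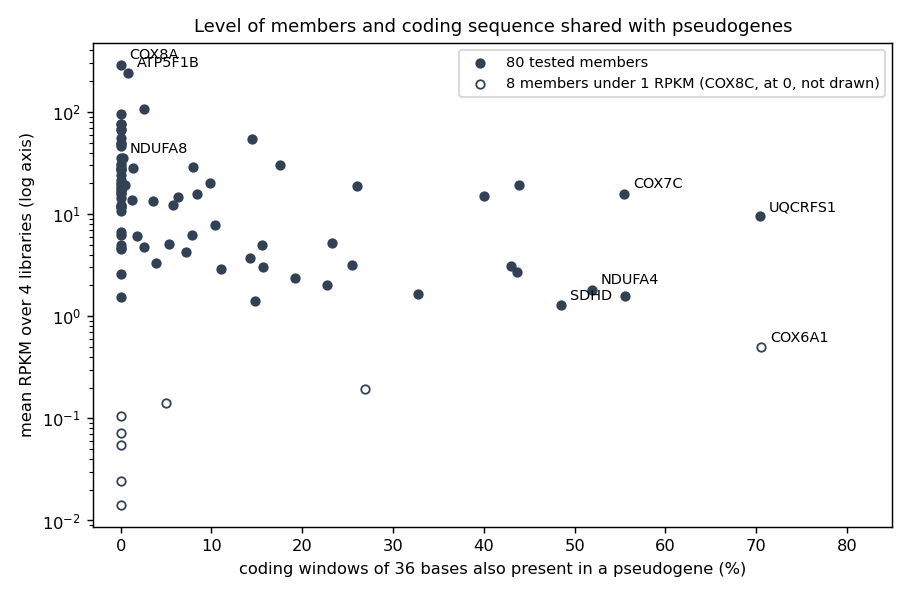
Mean RPKM over 4 libraries (y axis, log scale) of members against the share of their coding windows of 36 bases that also occur in a pseudogene (x axis, %). The 37 tested members with no shared window have a median of 19.9 RPKM; the 23 with at least 10% have a median of 3.14 RPKM, and NDUFA8 lies at 0% while UQCRFS1 lies at 70.39%.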

How the data were processed

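The authors deposited RPKM values for 36525 Ensembl genes in 4 libraries. Reads were aligned with Bowtie 0.12.7 to hg19, per the submitters' processing notes; how reads were counted, with or without strand, is not given in these sources. Every column of values was used. Symbols came from a current table for 32172 IDs and from GENCODE 29 for 136.

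RPKM steps gave estimated totals of 16.5 M and 18.3 M reads in knockdown and 23.0 M and 26.6 M in control libraries. They were used for depth only, since 82.5% to 82.9% of low values were whole reads within 0.1 read. Low values shared 1 step within a group, so the read total behind RPKM was common to a group. With depth removed, libraries of a group differed by a mean chi-square of 1.32 and 1.33 per gene, where counting error gives about 1.

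Genes with a mean of at least 1 RPKM were tested as log2(RPKM + 0.5) with limma 3.58.1 in R 4.3.3 (group alone, empirical Bayes with trend, Benjamini-Hochberg adjustment over all tested genes, threshold 0.05). limma found no spread of variance beyond its trend, so genes share a variance. A fold change on this scale understates low genes. The scripts' recovery of known changes was tested on simulated data. An exact permutation test of 2 against 2 libraries cannot go below p = 0.333, so none was run. Other pseudocounts, filters, scalings, a replicate block and leaving out each library were tried.

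Members and gene lists were chosen with earlier results of these data known. Genes named were HNRNPM, up to 4 members per complex with the smallest p, isoform pairs, complex II and up to 3 genes per other list. ATP5F1B, NDUFV2, NDUFAB1, CDH5, KRT8, KRT18, the ratios of genes and of complexes and the members named for pseudogene overlap were chosen after their values were seen. Promoter sequences are from RefSeq (GRCh38.p14).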

Additional observations from a re-analysis of the deposited data

How the results depend on the processing

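The direction of the 8 called members held under each alternative run; how many members passed depended on the processing. As deposited 4 members were higher and 4 lower. Pseudocounts of 0.1 and 1 gave the same counts, leaving out the variance trend gave 3 and 4, and fitting protein-coding genes alone gave 5 and 4. Without a filter 1 was higher (COX6B2, which the filter removes) and 0 lower (4 and 6 at an unadjusted p under 0.05), and 551 and 668 of all genes. At a mean of at least 5 RPKM, with fewer genes tested, 2 and 1 members and 1047 and 1321 of all genes passed. Median-ratio scaling gave 17 and 20 members (4192 higher and 4122 lower of all genes), equal-sum scaling 15 and 29 (3696 and 4638), and upper-quartile scaling 17 and 25 (3860 and 4432).

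With a replicate block 8 members were higher and 22 lower (3109 and 4318 of all genes), and with the block and median-ratio scaling 15 and 18 (3856 and 3738). Deviations of same-numbered libraries correlated at 0.03 across genes. With 2 pairs, and with shifts shared by all genes left out of it, this cannot decide whether the numbers pair the libraries. The median-ratio factors were 0.926 (knockdown) and 0.959 (control) for replicate 1, against 1.028 and 1.105 for replicate 2. ATP5PD did not pass under the block (adjusted p = 0.0619).

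With 1 library left out, as deposited or scaled, members higher ranged from 0 to 13 and lower from 0 to 17, and all genes from 759 to 3593 higher and from 1057 to 3685 lower. A lone library was then assumed to vary like the other group. The median log2 fold change of members ranged from −0.20 to 0.01.

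Changes near 0 changed sign with scaling. Under median-ratio scaling, with or without the block, ATP5MC3 was at 0.0359, COX6B1 at 0.00993, COX7B at 0.0547 and SDHC at 0.0462. Under upper-quartile scaling ATP5MC3 was at 0.00191, COX7B at 0.0216 and SDHC at 0.0167, and under equal-sum scaling COX7B was at 0.00299. With 1 library left out ATP5MC3 ranged from −0.15 to 0.0751, COX4I1 from −0.179 to 0.0336, COX6B1 from −0.141 to 0.0903, COX7B from −0.115 to 0.0789 and SDHC from −0.223 to 0.189. None of these 5 genes was called as deposited. The causes were not tested.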
